A study of Homo sapiens with 24 samples.

Results

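The 5 genes described here encode DNA-binding and cofactor proteins that work with steroid receptors in the prostate lineage: FOXA1, GATA2, GATA3, NR3C1 and NCOA2. They were taken by symbol from the deposited gene tables, where all 5 were found among 26346 genes. The androgen receptor's own gene is not one of them and is not reported here. PolyA RNA of 3 human cell lines had been sequenced in 24 libraries, which form 12 groups of 2, and each library held 19754265 to 41996681 counted reads.

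VCaP and LNCaP come from prostate cancers. SW13 comes from a carcinoma of the adrenal cortex and lacks BRG1, the SMARCA4 product that drives the BAF chromatin remodeler. VCaP, whose ERG gene is driven by a fusion to TMPRSS2, received a control hairpin (shCt), a hairpin against ERG (shERG) or a hairpin against the BAF subunit gene ARID1A (shARID1A), and was selected with puromycin for 8 days. LNCaP received an empty vector (Empty), ERG or the related ETS factor ETV1 and was selected with blasticidin for 4 days. SW13 received GFP, BRG1 or the ATPase mutant BRG1-K785R, each beside either an empty vector (Empty) or ERG, and was selected with both drugs for 2 days. Every group had been exposed to lentivirus for 48 h, and the 2 libraries of a group came from separate infections, selections and cultures. The titles name the SW13 control GFP, while protocol text of the other groups names luciferase, and the titles' name is used here. Each line is 1 cell line, so the values describe that line under that construct.

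FOXA1 is a forkhead pioneer factor that opens chromatin for the androgen receptor in luminal prostate cells. GATA2 and GATA3 are zinc finger factors of the GATA family, of which GATA2 acts upstream of and together with the androgen receptor in prostate cells, while GATA3 is best known in luminal breast and T cells. NR3C1 is the glucocorticoid receptor, which shares binding sites and target genes with the androgen receptor and can take over some of its targets when androgen signalling is blocked. NCOA2 is a p160 coactivator that bridges liganded steroid receptors to histone acetyltransferases.

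The promoters of the 3 genes that were called in both VCaP knockdowns under every alternative run are shown, since ERG is known to bind an ETS core and the GATA and forkhead proteins have motifs of their own. The sequences are from RefSeq (GRCh38.p14), run 5′ to 3′ in the direction of the gene, and give the 250 bases before a transcription start. Capitals mark an ETS core. The FOXA1 window is chr14:37595250-37595499 (minus strand), the GATA2 window is chr3:128493202-128493451 (minus strand), and the NR3C1 window is chr5:143405356-143405605 (minus strand).

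FOXA1: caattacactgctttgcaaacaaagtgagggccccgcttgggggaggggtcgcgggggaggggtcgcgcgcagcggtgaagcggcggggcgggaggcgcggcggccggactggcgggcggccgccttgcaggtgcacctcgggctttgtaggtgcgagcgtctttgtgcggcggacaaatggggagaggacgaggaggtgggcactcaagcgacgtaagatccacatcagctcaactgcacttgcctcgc

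GATA2: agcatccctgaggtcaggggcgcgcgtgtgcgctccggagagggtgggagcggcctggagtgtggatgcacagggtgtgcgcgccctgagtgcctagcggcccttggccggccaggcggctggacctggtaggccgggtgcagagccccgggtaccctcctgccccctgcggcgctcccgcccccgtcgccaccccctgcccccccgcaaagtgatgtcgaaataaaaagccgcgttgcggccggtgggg

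NR3C1: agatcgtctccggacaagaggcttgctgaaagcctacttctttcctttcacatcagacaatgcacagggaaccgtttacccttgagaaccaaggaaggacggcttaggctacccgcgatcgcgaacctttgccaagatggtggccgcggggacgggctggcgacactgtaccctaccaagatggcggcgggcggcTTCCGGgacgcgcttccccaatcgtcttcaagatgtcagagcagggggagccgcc

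These windows, with the 50 bases after the start, were searched on both strands for 4 motifs. The ETS core was searched as CCGGAA. The GATA motif, the site of the GATA factors, was searched as AGATAA. The forkhead motif, the site of FOXA1 and its relatives, was searched as TGTTTAC. The core of the steroid receptor element, which the glucocorticoid and androgen receptors share, was searched as AGAACA. None of the 4 was found in the 1 FOXA1 window or in the 2 GATA2 windows that RefSeq gives. Among the 7 NR3C1 windows 2 held an ETS core, and the one printed, chosen because its ETS core is the closest to a start, holds it 55 bases before that start on the opposite strand. The other NR3C1 window also held a forkhead motif 59 bases before its start and a GATA motif 14 bases after it, and no match overlapped another. Of the 6 GATA3 windows 2 held an ETS core. Among all 35116 RefSeq promoter windows, 17.2% held the ETS core, 10.3% the GATA motif, 3.42% the forkhead motif and 14.8% the steroid element core. A match is a description of the letters, and binding was not measured in these data.

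Levels are in CPM, read counts scaled to the library total, and are given for both libraries of a group. Changes are log2 differences from edgeR's quasi-likelihood test with TMM scaling, given ± an approximate standard error, and a change was called at an adjusted p under 0.05 over all genes tested in that cell line (Benjamini-Hochberg). Folds given with these changes come from the same TMM-scaled fit, so they can differ from the ratio of the CPM printed beside them. The spread is estimated over all groups of the line and moderated across genes, since a group has 2 libraries. The targeted genes followed their constructs in all libraries. ERG was 330.4 and 354.4 CPM in VCaP shCt and 80.99 and 87.92 CPM in shERG, and ARID1A was 251.2 and 249.8 CPM in shCt and 71.92 and 75.27 CPM in shARID1A. ERG was also lower in the shARID1A libraries, at 242.3 and 238.3 CPM. It was 957.8 to 995.7 CPM in LNCaP ERG and 1474 to 2148 CPM in the SW13 ERG groups, against at most 1.147 CPM in the other LNCaP and SW13 libraries. ETV1, which LNCaP expresses itself, was 443.8 to 590.5 CPM without the construct and 3626 and 3749 CPM with it, and SMARCA4 was 1417 to 2264 CPM in SW13 with either form of BRG1 and 25.54 to 35.38 CPM without.

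**Figure D1:**
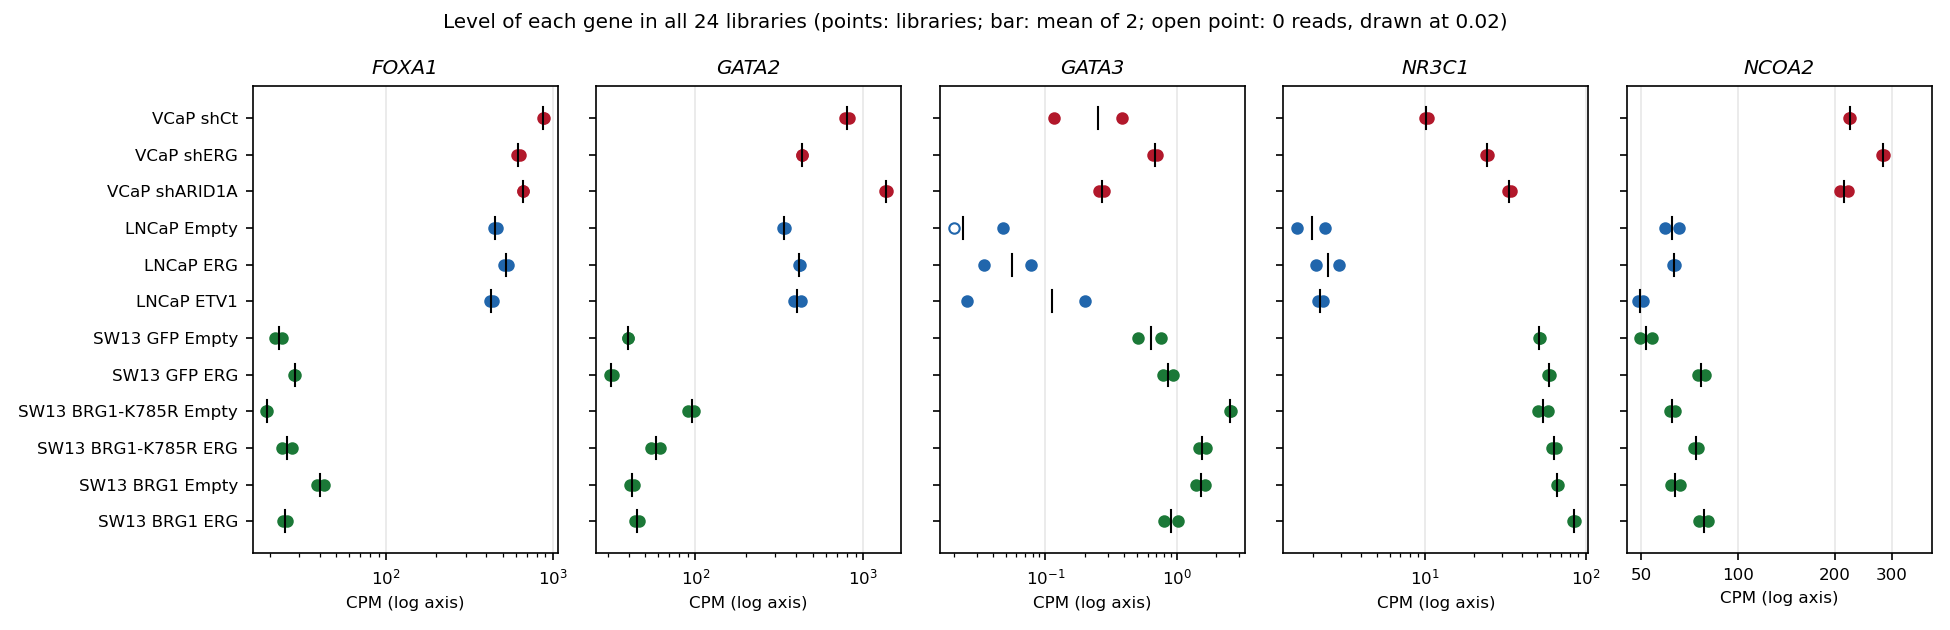
CPM on a log axis (its range differs between panels) for the 5 genes in all 24 libraries, with points for libraries and a bar for the mean of the 2 libraries in each group; the open point stands for 0 reads. FOXA1 and GATA2 are highest in the VCaP and LNCaP libraries, NR3C1 and GATA3 are highest in SW13 libraries, and NCOA2 is highest in VCaP.

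The 5 genes fell into different orders across the lines. Per length, as the deposited RPKM, the median over a line's libraries for FOXA1 was 196 in VCaP, 134 in LNCaP and 7.34 in SW13. The GATA2 level per length was 212, 106 and 11.5 RPKM in the same order. The NR3C1 level was highest in SW13, at 2.57 RPKM in VCaP, 0.235 RPKM in LNCaP and 6.43 RPKM in SW13. NCOA2 was at 36 RPKM in VCaP, 9.88 RPKM in LNCaP and 11.3 RPKM in SW13. GATA3 stayed under 1 RPKM in every library, with line medians of 0.108, 0.0133 and 0.393 RPKM.

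The lineage markers followed the prostate origin in VCaP and LNCaP but not the adrenal origin in SW13. Summed over 7 prostate luminal markers, VCaP libraries held 5920 to 11700 CPM, LNCaP libraries 5270 to 6370 CPM and SW13 libraries 16.6 to 193 CPM. KLK3, the gene of prostate-specific antigen, had a mean of 940 CPM in VCaP shCt and 3050 CPM in LNCaP Empty, and 5 reads in both SW13 GFP Empty libraries together. Of 6 adrenal cortex markers only 1 reached 1 CPM in SW13 GFP Empty. It was CYP21A2, which has a near-identical pseudogene. NR5A1, the master regulator of adrenal steroid-producing cells, was at 0.0614 CPM and STAR at 0.0837 CPM.

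Between the control groups, FOXA1, GATA2, NR3C1 and NCOA2 were called in each comparison of lines. For VCaP against LNCaP all 4 were higher, where 77.7% of all genes were called (37.8% higher, 39.8% lower). For SW13, 1 was higher and 3 lower against LNCaP, where 79.3% of all genes were called (37.8% higher, 41.5% lower), and likewise against VCaP, where 80.7% were called (40.3% higher, 40.5% lower). FOXA1 was 2.05-fold higher in VCaP shCt than in LNCaP Empty (log2 1.04 ± 0.06, adjusted p = 9.95e-15) and 19.5-fold lower in SW13 GFP Empty than in LNCaP Empty. GATA2 was 2.51-fold higher in VCaP shCt than in LNCaP Empty (log2 1.32 ± 0.06, adjusted p = 3.25e-17) and 8.31-fold lower in SW13 than in LNCaP. NR3C1 was 5.45-fold higher in VCaP than in LNCaP and 26.6-fold higher in SW13 than in LNCaP. NCOA2 was 3.77-fold higher in VCaP than in LNCaP, while SW13 and LNCaP differed by 1.18-fold. GATA3 is left out of these counts, since the 2 LNCaP Empty libraries held 0 and 2 reads and VCaP shCt 3 and 10. The GATA3 ratio of SW13 GFP Empty to LNCaP Empty was 25.5 with a 95% counting interval of 6.48 to 221, and that of VCaP shCt to LNCaP Empty was 10.3 (interval 2.33 to 93.7). Its edgeR call for VCaP against LNCaP was lost without the second VCaP shCt library (adjusted p = 0.13). The GATA3 difference between SW13 and VCaP (log2 1.26 ± 0.55, adjusted p = 0.0371) was lost without the first shCt library (0.318), without the first SW13 GFP Empty library (0.192) and with DESeq2 (0.056). Line, construct, drug and days of selection cannot be told apart in these comparisons, and in bulk RNA fewer cells expressing a gene cannot be told apart from less RNA per cell.

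Knockdown of ERG in VCaP was followed by lower FOXA1 and GATA2 and by higher NR3C1. The 4 genes that reached the minimum of 10 reads in every VCaP library (all but GATA3) were called, 2 higher and 2 lower, where 66.7% of all 16791 genes were called (29.3% higher, 37.4% lower). Scaling by library totals in place of TMM shifted the median over all genes by 0.183 and moved the share of higher genes among those called from 43.9% to 60.5%, and it changed no direction among these genes.

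FOXA1 was at 869.7 and 885.0 CPM in shCt and at 607.1 and 638.9 CPM in shERG. Both shERG libraries lay below both controls, a 1.6-fold lower level (log2 -0.68 ± 0.05, adjusted p = 1.57e-11). GATA2 was at 773.8 and 818.6 CPM in shCt and at 431.0 and 429.0 CPM in shERG. It was 2.1-fold lower, with no overlap between the libraries (log2 -1.07 ± 0.05, adjusted p = 7.84e-15). NR3C1 stood at 10.37 and 9.98 CPM in shCt and at 24.62 and 23.93 CPM in shERG. The receptor gene rose 2.1-fold with no overlap (log2 1.07 ± 0.09, adjusted p = 3.14e-10). NCOA2 was at 221.3 and 222.4 CPM in shCt and 280.3 and 284.7 CPM in shERG. After TMM scaling its rise was small (log2 0.17 ± 0.05, adjusted p = 0.00302). With library totals as the scale the log2 changes were -0.49 for FOXA1, -0.89 for GATA2, 1.25 for NR3C1 and 0.35 for NCOA2.

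GATA3 had 3 and 10 reads in the shCt libraries, 22 and 17 reads in the shERG libraries and 8 and 6 reads in the shARID1A libraries. It passed the filter on low counts only through the shERG libraries, so its presence among the tested genes already depended on that group, and its values in VCaP are a description that supports no difference. The edgeR value with shERG (log2 1.26 ± 0.52, adjusted p = 0.038) no longer passed without the first shCt library (0.336), without the first or the second shERG library (0.126 and 0.0888), with no filter (0.051) and with DESeq2 (0.159).

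The summed prostate luminal markers moved with FOXA1 and GATA2, from 11100 to 11700 CPM in shCt to 5920 to 6130 CPM in shERG, with 6 of 7 markers lower and 1 higher. The sum of 5 mesenchymal markers was 18.4 to 18.9 CPM in shCt and 40.2 to 41.6 CPM in shERG, where 3 of the 3 tested were higher. The neuroendocrine sum was 163 to 179 CPM in shCt and 108 to 112 CPM in shERG, with 4 of 5 markers lower, and the sum of 4 basal markers was 8.06 to 10.5 CPM and 1.3 to 1.94 CPM. The part of these markers in the changes of FOXA1, GATA2 and NR3C1 was not tested.

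Knockdown of ARID1A shared the lower FOXA1 and the higher NR3C1 but moved GATA2 the other way. Both knockdowns were compared with the same 2 shCt libraries, so what they share is not 2 independent results. ERG was also lower in shARID1A than in shCt, as given above, and its part was not tested. The same 4 genes were called, 2 higher and 2 lower, against 66.1% of all genes (32.9% higher, 33.2% lower). FOXA1 was at 661.7 and 660.8 CPM in shARID1A, 1.39-fold below shCt with no overlap (log2 -0.47 ± 0.05, adjusted p = 4.87e-09). GATA2 reached 1345 and 1393 CPM, its highest level in the 24 libraries and 1.64-fold above shCt (log2 0.72 ± 0.05, adjusted p = 5e-12). NR3C1 was at 32.89 and 34.01 CPM, 3.14-fold above shCt (log2 1.65 ± 0.08, adjusted p = 9.05e-14). Among all tested genes 92.4% had a smaller absolute change than NR3C1 in this comparison. GATA3 was not called (log2 0.03 ± 0.63, adjusted p = 0.965). NCOA2 was at 218.6 and 207.4 CPM. Its difference from shCt (log2 -0.12 ± 0.05, adjusted p = 0.0214) was lost with library totals as the scale (-0.06, 0.256), with DESeq2 (0.0725), without either shCt library (0.0779 and 0.0557) and without the second shARID1A library (0.192). The luminal marker sum was 8870 to 9390 CPM in shARID1A, with 3 of 7 markers higher and 4 lower. The mesenchymal sum was 28.6 to 33.2 CPM against 18.4 to 18.9 CPM in shCt, with 2 of the 3 tested higher. It thus rose with NR3C1 in both VCaP knockdowns, which was not so for ERG beside BRG1 in SW13. The neuroendocrine sum was 132 to 139 CPM, with 2 of 5 markers higher and 3 lower, and the basal sum was 3.65 to 5.13 CPM. The part of these markers in the changes was not tested.

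Set directly against each other, the shARID1A and shERG libraries differed most in GATA2. FOXA1, GATA2 and NR3C1 were called higher in shARID1A and NCOA2 lower, where 73.0% of all genes were called (36.8% higher, 36.2% lower) and with library totals the median of all genes shifted by -0.116. GATA2 was 3.45-fold higher in shARID1A (log2 1.79 ± 0.05, adjusted p = 6.4e-19), and 90.7% of tested genes had a smaller absolute change. NR3C1 was 1.49-fold higher (log2 0.58 ± 0.07, adjusted p = 3.15e-07), and NCOA2 was 1.22-fold lower (log2 -0.29 ± 0.05, adjusted p = 6.32e-06). The difference in FOXA1 was small (log2 0.20 ± 0.05, adjusted p = 0.000414), and it was lost with library totals (0.09, 0.0774) and without the first shERG library (0.11, 0.0578). GATA3 is not counted here, since the shERG libraries, the higher side of this comparison, put it among the tested genes. Its difference (log2 -1.22 ± 0.51, adjusted p = 0.0362) no longer passed when any 1 library of either knockdown was left out (adjusted p 0.0852 to 0.127) and with DESeq2 (0.163). The level of GATA2 per length relative to FOXA1, as a ratio of RPKM, was 0.815 in shCt, 0.62 in shERG and 1.86 in shARID1A (means of 2 libraries).

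**Figure D2:**
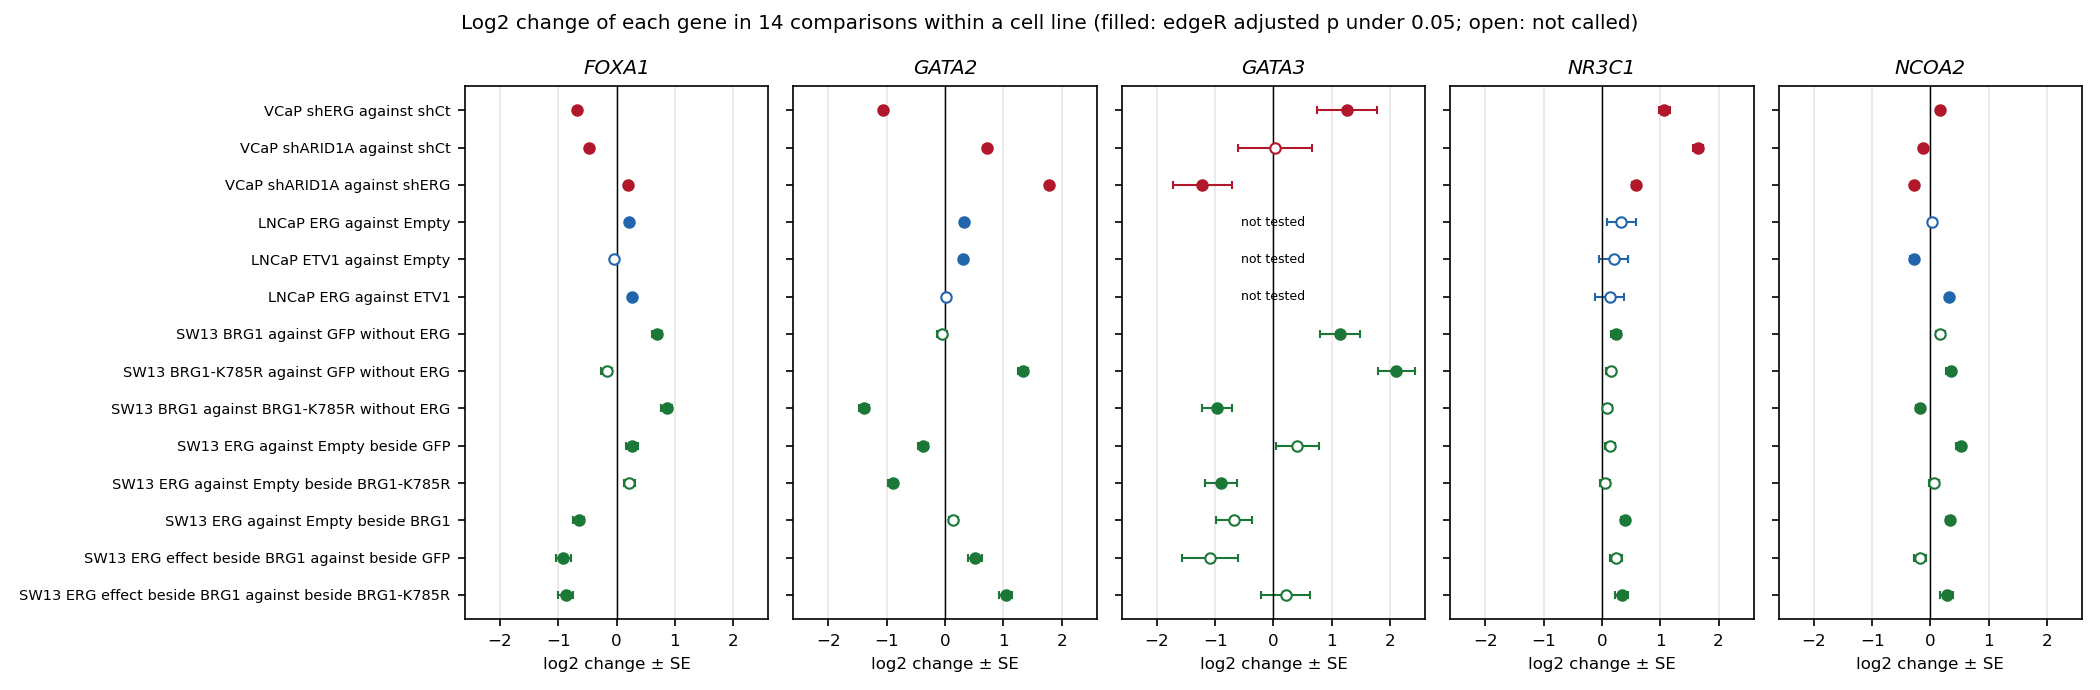
Log2 change ± SE for the 5 genes in the 14 comparisons within a cell line, with filled points for an edgeR adjusted p under 0.05 and open points for changes not called. FOXA1 is lower and NR3C1 higher in both VCaP knockdowns, while GATA2 is lower with shERG (-1.07) and higher with shARID1A (0.72). Both knockdowns share the shCt libraries. GATA3 in VCaP passed the filter through the shERG libraries alone.

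Other factors of luminal epithelia and the relatives of the 5 genes were read from lists. GATA6, a further GATA factor, went with GATA2 in VCaP: it was at a mean of 51.8 CPM in shCt, 28.8 CPM in shERG (log2 -1.03 ± 0.06, adjusted p = 2.53e-12) and 72.2 CPM in shARID1A (log2 0.41 ± 0.06, adjusted p = 1.83e-06). Of the 8 FOXA and GATA relatives and GATA cofactors 3 were tested in VCaP, and with shERG 1 was higher and 1 lower. NR3C2, the mineralocorticoid receptor gene and closest relative of NR3C1, fell with shERG from 14.7 to 9.48 CPM (log2 -0.82 ± 0.11, adjusted p = 1.03e-06) and was at 15.2 CPM in shARID1A (log2 -0.02 ± 0.10, adjusted p = 0.862). Of 10 luminal epithelial factors, 3 were higher and 4 lower with shERG, at a median log2 change of -0.16 (-0.05 over all genes). SPDEF, a prostate epithelial ETS factor, fell from 354 to 91.1 CPM (log2 -2.14 ± 0.05, adjusted p = 1.56e-19). With shARID1A 7 of the 10 were higher and 1 lower, at a median of 0.59 (0.01 over all genes). Called genes made up 66.7% of all genes with shERG and 66.1% with shARID1A. ELF3, another epithelial ETS factor, fell from 155 to 82.8 CPM with shERG (log2 -1.08 ± 0.05) and rose to 361 CPM with shARID1A (log2 1.16 ± 0.05).

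The glucocorticoid response list holds 16 genes that the receptor is known to induce in many cells, and 15 were tested in VCaP. With shERG 8 were higher, 4 lower and 3 not called, at a median log2 change of 0.26 against -0.05 over all genes. With shARID1A 10 were higher, 3 lower and 2 not called, at a median of 0.36 against 0.01. Over all genes 66.7% and 66.1% were called in the 2 knockdowns. CEBPD, a C/EBP transcription factor, rose in both knockdowns, from 13.7 CPM to 38.7 CPM (log2 1.31 ± 0.08, adjusted p = 1.4e-12) and to 47.2 CPM (log2 1.71 ± 0.08, adjusted p = 7.75e-15). FKBP5, an HSP90 cochaperone that is also an androgen target, rose from 91.6 to 125 CPM with shERG and fell to 52.2 CPM with shARID1A (log2 0.26 ± 0.06 and -0.88 ± 0.06). DUSP1, a MAP kinase phosphatase, fell from 23.1 to 11.9 CPM with shERG (log2 -1.14 ± 0.10) and rose to 45.5 CPM with shARID1A (log2 0.91 ± 0.08). ERRFI1, an inhibitor of EGF receptor signalling, rose from 82.2 to 191 CPM with shARID1A (log2 1.15 ± 0.05) and was not called with shERG (log2 -0.03 ± 0.05, adjusted p = 0.575). Both comparisons share the shCt libraries, and FKBP5 and DUSP1 were chosen after their values were seen.

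Genes for chaperones that hold the receptor ready for hormone, and for enzymes that make or break its ligand, were mostly lower in both knockdowns. Of 10 chaperone and ligand enzyme genes 9 were tested. With shERG 2 were higher and 7 lower at a median of -0.36, and with shARID1A 1 was higher and 8 lower at a median of -0.70 (-0.05 and 0.01 over all genes). Among all genes 37.4% were called lower with shERG and 33.2% with shARID1A. HSP90AB1, an HSP90 gene, fell from 1880 to 1100 CPM with shERG (log2 -0.96 ± 0.05, adjusted p = 1.14e-13). FKBP4, the cochaperone that aids receptor transport, fell from 391 to 171 CPM with shARID1A (log2 -1.26 ± 0.05, adjusted p = 1.18e-15). The single gene higher with shARID1A was HSD11B2, which inactivates cortisol, at 9.63 CPM in shCt and 28.1 CPM in shARID1A (log2 1.48 ± 0.09, adjusted p = 5.16e-12).

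**Figure D3:**
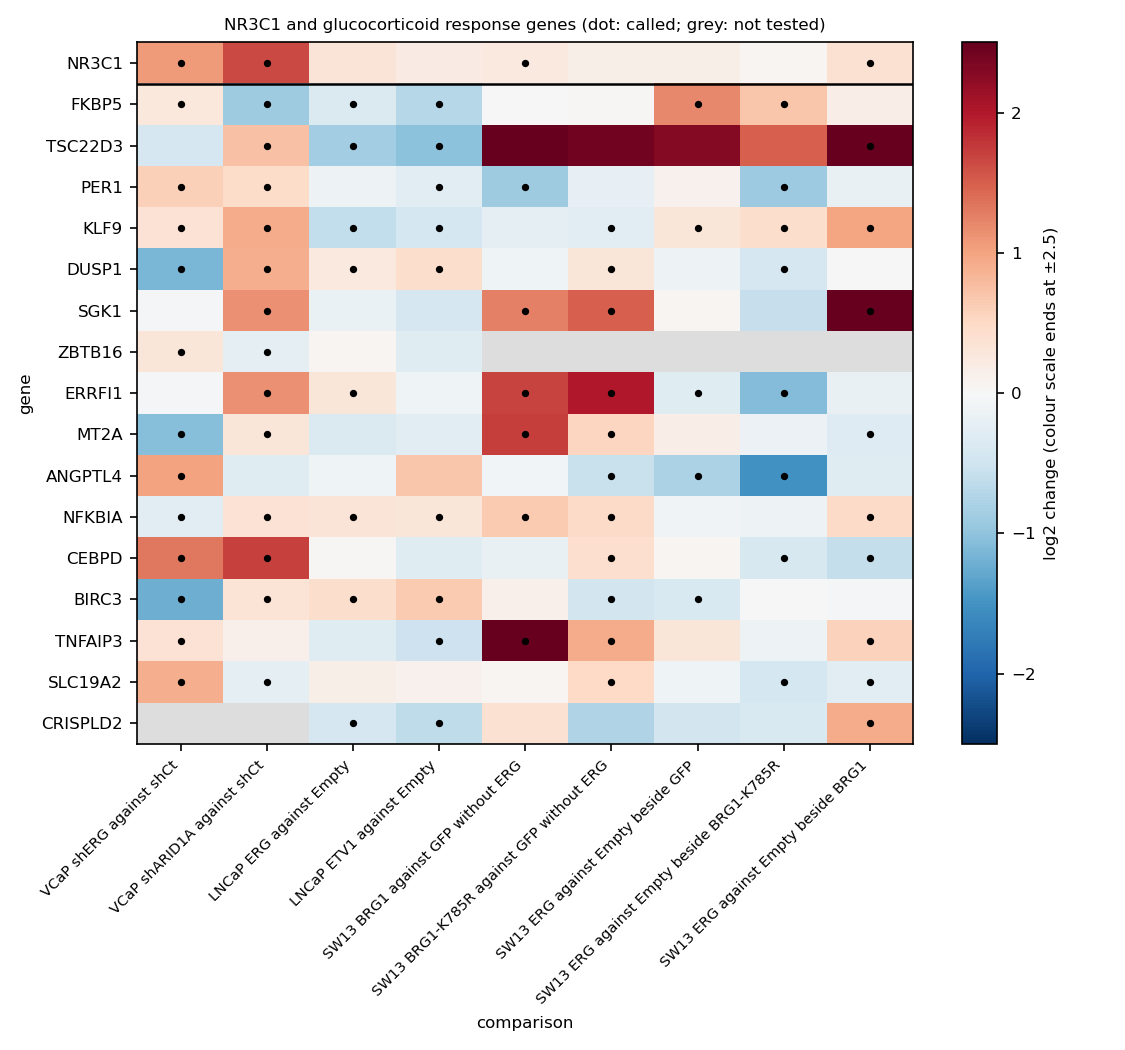
Log2 change of NR3C1 (top row) and of the 16 glucocorticoid response genes in 9 comparisons, with a dot for genes called at an edgeR adjusted p under 0.05 and grey where a gene was not tested; colours end at ±2.5. In VCaP 8 of 15 genes are called higher with shERG and 10 of 15 with shARID1A, and DUSP1, MT2A, NFKBIA and BIRC3 are called lower with shERG and higher with shARID1A, while FKBP5, ZBTB16 and SLC19A2 are called the other way.

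Among 9 listed coactivator and corepressor genes, the corepressor gene NCOR1 moved most against shCt in both VCaP knockdowns. It was at 347 CPM in shCt, 705 CPM in shERG (log2 0.84 ± 0.05, adjusted p = 5.33e-13) and 731 CPM in shARID1A (log2 1.01 ± 0.05, adjusted p = 1.63e-14). Of these 9 p160 coactivators, partners and corepressors, 3 were higher and 2 lower with shERG and 5 higher and 2 lower with shARID1A, at medians of 0.04 and 0.17 (-0.05 and 0.01 over all genes). Called genes made up 66.7% and 66.1% of all genes. The other p160 genes, NCOA1 and NCOA3, were chosen as relatives of NCOA2 and not by the size of their change. NCOA1 had a log2 change of -0.36 ± 0.05 with shERG and 0.25 ± 0.05 with shARID1A, and NCOA3 one of 0.18 ± 0.05 and 0.07 ± 0.05, of which the last was not called.

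Expression of ERG in LNCaP was followed by slightly higher GATA2 and FOXA1. With ERG 2 of the 4 tested genes were called, both higher, against 29.7% of all 16993 genes (15.4% higher, 14.3% lower). GATA2 was at 340.3 and 332.1 CPM in Empty and at 412.0 and 421.3 CPM with ERG, 1.25-fold higher with no overlap (log2 0.32 ± 0.05, adjusted p = 0.00175). FOXA1 was at 443.5 and 461.4 CPM in Empty and at 537.0 and 511.3 CPM with ERG (log2 0.22 ± 0.05, adjusted p = 0.00787). The FOXA1 call was lost without the first Empty library (0.0883) and without the first ERG library (0.0513). NR3C1 was low in all LNCaP libraries, at 2.368 and 1.595 CPM in Empty and 2.091 and 2.896 CPM with ERG, and the groups overlapped (log2 0.33 ± 0.25, adjusted p = 0.357). NCOA2 overlapped too, at 65.3 and 59.24 CPM in Empty and 62.43 and 63.48 CPM with ERG (log2 0.03 ± 0.06, adjusted p = 0.776). The mesenchymal marker sum was 787 to 866 CPM in Empty and 1920 to 2020 CPM with ERG, with 2 of 5 markers called higher, and its part in these changes was not tested.

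With ETV1, GATA2 rose and NCOA2 fell, and these were the 2 of 4 tested genes called, against 26.1% of all genes (13.2% higher, 12.9% lower). Library totals moved the share of higher genes among those called from 50.5% to 40.0%. GATA2 was at 385.2 and 423.0 CPM with ETV1, 1.23-fold above Empty with no overlap (log2 0.30 ± 0.05, adjusted p = 0.00261). NCOA2 was at 48.7 and 50.55 CPM, 1.22-fold below Empty (log2 -0.29 ± 0.06, adjusted p = 0.0065), a call lost without the first Empty library (0.0718) and without the first ETV1 library (0.0514). FOXA1 was at 417.4 and 436.9 CPM (log2 -0.05 ± 0.05, adjusted p = 0.52) and NR3C1 at 2.304 and 2.14 CPM (log2 0.20 ± 0.25, adjusted p = 0.597). The mesenchymal marker sum was 927 to 1010 CPM with ETV1, with 1 of 5 markers called higher, and its part was not tested.

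Between ERG and ETV1, FOXA1 and NCOA2 were higher with ERG, 2 of 4 tested genes against 14.4% of all genes (7.87% higher, 6.50% lower). Library totals moved the share of higher genes among those called from 54.8% to 64.8%. FOXA1 differed by 1.2-fold (log2 0.27 ± 0.05, adjusted p = 0.00661) and NCOA2 by 1.24-fold (log2 0.32 ± 0.06, adjusted p = 0.00832), with no overlap in either. The NCOA2 call was lost without either ETV1 library (0.0638 and 0.0502). GATA2 did not pass the test between them (log2 0.02 ± 0.05, adjusted p = 0.854), nor did NR3C1 (log2 0.13 ± 0.25, adjusted p = 0.775). GATA3 was below the filter in all 6 LNCaP libraries, with 0 and 2 reads in Empty, 3 and 1 with ERG and 8 and 1 with ETV1, and gives no fold.

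In LNCaP the lists around the receptor held called genes of both directions. Of the 16 glucocorticoid response genes 4 were higher and 4 lower with ERG and 3 higher and 6 lower with ETV1, at medians of -0.12 and -0.28 (0 over all genes, of which 29.7% and 26.1% were called). TSC22D3, an anti-inflammatory leucine zipper gene, fell from 159 to 86.4 CPM with ERG (log2 -0.87 ± 0.09, adjusted p = 0.000244) and to 76.1 CPM with ETV1 (log2 -1.03 ± 0.09, adjusted p = 0.000112). Of the 9 tested chaperone and ligand enzyme genes 2 were higher and 2 lower with ERG and 2 higher and 3 lower with ETV1. Among them HSD11B2 rose from 57.3 to 115 CPM with ERG (log2 1.01 ± 0.07, adjusted p = 2.07e-05) and to 120 CPM with ETV1 (log2 1.11 ± 0.07, adjusted p = 1.31e-05). NR3C2 rose from 7.53 to 9.66 CPM with ERG (log2 0.37 ± 0.10, adjusted p = 0.0241) and fell to 4.42 CPM with ETV1 (log2 -0.73 ± 0.11, adjusted p = 0.00128). Of the 9 coactivator and corepressor genes 2 were higher and 1 lower with ERG and 1 higher and 3 lower with ETV1, at medians of 0.01 and -0.06. Those 3 and 4 called genes of 9 are near the shares over all genes. The 10 luminal epithelial factors gave 2 higher and 3 lower with ERG, at a median of -0.2. With ETV1 none was higher and 6 were lower, at a median of -0.23. Both comparisons share the Empty libraries.

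In SW13 without ERG, FOXA1 was highest with wild-type BRG1 and GATA2 with its ATPase mutant. With BRG1 against GFP 3 of 5 were called, all higher, where 62.4% of all 17018 genes were called (32.2% higher, 30.2% lower). With library totals the median of all genes shifted by 0.133 and the share of higher genes among those called went from 51.6% to 64.1%. FOXA1 was at 21.6 and 23.74 CPM beside GFP and at 42.09 and 38.22 CPM with BRG1, 1.61-fold higher with no overlap (log2 0.69 ± 0.09, adjusted p = 1.15e-07). GATA3 rose from 17 and 13 reads to 37 and 41 reads (log2 1.14 ± 0.34, adjusted p = 0.00398), a call lost without the second GFP Empty library (0.89, 0.0711). NR3C1 was at 51.62 and 51.28 CPM beside GFP and 66.2 and 66.75 CPM with BRG1 (log2 0.24 ± 0.08, adjusted p = 0.00781), lost without the first GFP Empty library (0.0642). GATA2 was at 39.46 and 39.61 CPM beside GFP and 43.11 and 40.71 CPM with BRG1, and its difference was not called and changed sign with the scale (log2 -0.05 ± 0.08, adjusted p = 0.622, and 0.08 with library totals). NCOA2 was at 53.98 and 49.6 CPM and 65.97 and 61.56 CPM (log2 0.17 ± 0.08, adjusted p = 0.0505), and it was called with library totals (0.30, 0.000906), with RLE factors (0.0455), in a fit of the compared groups alone (0.0292) and without the second BRG1 Empty library (0.0462).

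With BRG1-K785R against GFP, GATA2 and GATA3 rose and FOXA1 did not pass the test. Of the 5 genes 3 were called, all higher, against 58.7% of all genes (32.3% higher, 26.4% lower). GATA2 was at 98.74 and 91.02 CPM in BRG1-K785R Empty, its highest level in SW13 and 2.54-fold above GFP Empty (log2 1.34 ± 0.08, adjusted p = 1.97e-15). GATA3 had 69 and 56 reads there, against 17 and 13 beside GFP, a 4.3-fold higher fitted level (log2 2.11 ± 0.31, adjusted p = 6.09e-07). NCOA2 was at 61.17 and 63.5 CPM (log2 0.35 ± 0.08, adjusted p = 0.000191). FOXA1 was at 19.21 and 19.1 CPM (log2 -0.17 ± 0.10, adjusted p = 0.15) and was called lower with library totals (-0.24, 0.0326). NR3C1 was at 50.16 and 57.98 CPM and overlapped the GFP libraries (log2 0.15 ± 0.08, adjusted p = 0.0971), and it was called without the first BRG1-K785R Empty library (0.25, 0.0172). The counting is not known to use strand, so reads of GATA2 and GATA3 could include those of overlapping antisense transcripts.

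Between the 2 forms of BRG1, FOXA1 was higher and GATA2 and GATA3 lower with the wild type. Of the 5 genes 4 were called, 1 higher and 3 lower, against 66.7% of all genes (32.6% higher, 34.1% lower), and with library totals the median of all genes shifted by 0.213 and the share of higher genes among those called went from 48.9% to 66.0%. FOXA1 was 1.81-fold higher (log2 0.86 ± 0.09, adjusted p = 1.69e-09), GATA2 2.62-fold lower (log2 -1.39 ± 0.08, adjusted p = 3.26e-16) and GATA3 1.96-fold lower (log2 -0.97 ± 0.26, adjusted p = 0.00161). With library totals the log2 changes of FOXA1, GATA2 and GATA3 were 1.07, -1.18 and -0.76. The NCOA2 difference (log2 -0.18 ± 0.07, adjusted p = 0.0348) turned to 0.03 with library totals (0.689) and was lost with RLE factors (0.0642), with DESeq2 (0.0781), in a fit of the compared groups alone (0.0683), without the second BRG1-K785R Empty library (0.112) and without the second BRG1 Empty library (0.255). NR3C1 was not called (log2 0.09 ± 0.08, adjusted p = 0.313), and it was called with library totals (0.30, 0.000972). The ratio of GATA2 to FOXA1 per length was 1.57 beside GFP, 4.45 with BRG1-K785R and 0.938 with BRG1.

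The BRG1-K785R Empty libraries stood apart in TMM factor and in the share of their top genes. Their TMM factors of 0.9104 and 0.9166 were the lowest of the SW13 libraries, and 9.1% and 9.57% of their reads fell in the 20 top genes, against 6.52% to 8.24% in the other SW13 libraries. In correlation with the mean of the other SW13 libraries, BRG1 ERG was lowest (r = 0.9573 and 0.9521). BRG1 Empty followed (0.9682 and 0.9645), then BRG1-K785R Empty (0.9702 and 0.9729). SMARCA4 reads, from the construct and the endogenous gene together, had a mean of 2110 CPM in BRG1-K785R Empty, 1423 CPM in BRG1-K785R ERG, 2175 CPM in BRG1 Empty and 28.5 CPM in GFP Empty. A fit without both BRG1-K785R Empty libraries, chosen after the data were seen, kept every call and non-call of the 5 genes in the 4 SW13 comparisons that do not use that group. Summed prostate luminal markers in SW13 were 25.8 to 27.7 CPM beside GFP, 16.6 to 18.5 CPM with BRG1-K785R and 73 to 75.1 CPM with BRG1, and the mesenchymal sum was 86.1 to 93 CPM, 136 to 145 CPM and 253 to 255 CPM. The neuroendocrine sum was 138 to 148 CPM beside GFP, 56.3 to 56.7 CPM with BRG1-K785R and 40.3 to 45.6 CPM with BRG1. Of its 3 tested markers all were lower with BRG1 (median log2 -1.94), and 2 were lower and 1 higher with BRG1-K785R. The basal sum was at most 0.157 CPM beside GFP, 1.43 to 1.67 CPM with BRG1-K785R and 2.57 to 2.75 CPM with BRG1. The part of these markers in the changes of FOXA1, GATA2 and GATA3 was not tested.

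The effect of ERG on FOXA1 and GATA2 in SW13 differed between the constructs beside it. ERG itself was highest beside BRG1, at 1859 and 2148 CPM. It was at 1474 and 1587 CPM beside GFP and at 1609 and 1585 CPM beside BRG1-K785R. Between BRG1 and the other constructs, construct and ERG level cannot be told apart, and the part of that level was not tested. Beside GFP 3 of 5 genes were called, 2 higher and 1 lower, against 26.0% of all genes (12.6% higher, 13.5% lower), and library totals moved the share of higher genes among those called from 48.3% to 62.0%. NCOA2 rose from 53.98 and 49.6 CPM to 74.95 and 78.5 CPM, 1.43-fold with no overlap (log2 0.52 ± 0.08, adjusted p = 7.32e-06). GATA2 fell from 39.46 and 39.61 CPM to 32.17 and 31.01 CPM, 1.3-fold with no overlap (log2 -0.38 ± 0.08, adjusted p = 0.00112). FOXA1 was at 27.9 and 28.51 CPM with ERG (log2 0.26 ± 0.10, adjusted p = 0.042), and that call was lost without any 1 of the 4 libraries (adjusted p 0.0509 to 0.326), with no filter (0.0587) and with DESeq2 (0.063). NR3C1 was at 58.19 and 59.6 CPM (log2 0.14 ± 0.08, adjusted p = 0.181) and was called in a fit of the compared groups alone (0.0451). GATA3 had 23 and 19 reads (log2 0.41 ± 0.37, adjusted p = 0.456). The luminal marker sum was 33.1 to 34.4 CPM with ERG against 25.8 to 27.7 CPM, with 1 of 5 tested markers called, and its part was not tested.

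Beside BRG1-K785R 2 of 5 genes were called, both lower, against 56.2% of all genes (25.3% higher, 30.9% lower). With library totals the median of all genes shifted by 0.183 and the share of higher genes among those called went from 45.1% to 64.6%. GATA2 fell from 98.74 and 91.02 CPM to 54.17 and 61.92 CPM, 1.87-fold with no overlap (log2 -0.90 ± 0.08, adjusted p = 2.04e-11). GATA3 fell from 69 and 56 reads to 29 and 33 reads (log2 -0.90 ± 0.27, adjusted p = 0.00564). With library totals both falls were smaller but still called, at log2 -0.71 for GATA2 and -0.71 for GATA3 (adjusted p = 4.82e-08 and 0.0274). The ERG libraries remained above the GFP Empty libraries for both genes. These falls and the rises with BRG1-K785R against GFP rest on the same BRG1-K785R Empty libraries. FOXA1 was at 23.64 and 27.35 CPM with ERG (log2 0.22 ± 0.10, adjusted p = 0.0556), NR3C1 at 62.01 and 65.46 CPM (log2 0.05 ± 0.08, adjusted p = 0.598) and NCOA2 at 73.05 and 74.76 CPM (log2 0.06 ± 0.08, adjusted p = 0.535). All 3 were called higher with library totals as the scale, at log2 changes of 0.41, 0.24 and 0.25 (adjusted p = 0.00091, 0.00837 and 0.00531). FOXA1 was also called with RLE factors (0.0361), in a fit of the compared groups alone (0.0367) and without the first BRG1-K785R ERG library (0.034). The luminal marker sum was 16.6 to 18.5 CPM in BRG1-K785R Empty and 44.6 to 46.6 CPM with ERG, with 5 of the 5 tested markers higher at a median of 1.67. The mesenchymal sum was 136 to 145 CPM without and 86 to 91.3 CPM with ERG, with 2 of 5 markers lower, and the basal sum was 1.43 to 1.67 CPM and 0.152 to 0.456 CPM. SMARCA4 was at 2180 and 2039 CPM in BRG1-K785R Empty and at 1417 and 1430 CPM in BRG1-K785R ERG. The part of these markers and of the SMARCA4 level in the changes of GATA2 and GATA3 was not tested.

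Beside wild-type BRG1, FOXA1 fell and NR3C1 and NCOA2 rose with ERG, so that 3 of 5 genes were called against 45.4% of all genes (22.6% higher, 22.8% lower). FOXA1 fell from 42.09 and 38.22 CPM to 25.42 and 24.19 CPM, 1.57-fold with no overlap (log2 -0.65 ± 0.09, adjusted p = 6.29e-07). Both libraries then lay within the range of the other 2 ERG groups, whose libraries ran from 23.64 to 28.51 CPM. This fall and the rise of FOXA1 with BRG1 against GFP rest on the same BRG1 Empty libraries. NR3C1 rose from 66.2 and 66.75 CPM to 83.29 and 85.13 CPM, its highest level in the 24 libraries (log2 0.39 ± 0.07, adjusted p = 7.19e-05). NCOA2 rose from 65.97 and 61.56 CPM to 75.61 and 80.68 CPM (log2 0.34 ± 0.07, adjusted p = 0.000334). GATA2 was at 45.88 and 43.76 CPM with ERG (log2 0.14 ± 0.08, adjusted p = 0.153) and GATA3 at 20 and 26 reads, down from 37 and 41 (log2 -0.68 ± 0.31, adjusted p = 0.0687). The luminal marker sum was 147 to 193 CPM in BRG1 ERG against 73 to 75.1 CPM in BRG1 Empty, while FOXA1 fell. The mesenchymal sum was 176 to 182 CPM against 253 to 255 CPM, with 1 of 5 markers higher and 3 lower, while NR3C1 rose. The basal sum was 0.56 to 0.945 CPM against 2.57 to 2.75 CPM. The part of these markers in the changes was not tested.

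The difference between ERG effects was tested itself. Between BRG1 and GFP 2 of 5 genes were called, against 37.8% of all genes (19.1% higher, 18.7% lower), with the share of higher genes among those called at 50.4%, or 37.1% with library totals. The ERG effect on FOXA1 was lower beside BRG1 by a log2 difference of -0.91 ± 0.13 (adjusted p = 2.42e-06), and that on GATA2 was higher by 0.52 ± 0.12 (adjusted p = 0.00064). GATA3 (-1.09 ± 0.48, adjusted p = 0.0742), NR3C1 (0.24 ± 0.11, adjusted p = 0.0703) and NCOA2 (-0.18 ± 0.11, adjusted p = 0.19) were not called. Between BRG1 and BRG1-K785R 4 of 5 genes were called, 3 higher and 1 lower, against 46.2% of all genes (25.8% higher, 20.4% lower), while with library totals the median of all genes shifted by -0.233 and the share of higher genes went from 55.8% to 29.9%. FOXA1 had a difference of -0.87 ± 0.13 (adjusted p = 3.42e-06) and GATA2 one of 1.04 ± 0.11 (adjusted p = 6.56e-09). With library totals these were -1.11 and 0.81. NR3C1 (0.34 ± 0.11, adjusted p = 0.0106) was lost with library totals (0.10, 0.447) and without the second BRG1-K785R Empty library (0.0787). NCOA2 (0.28 ± 0.11, adjusted p = 0.0286) was lost with library totals (0.05, 0.734), with DESeq2 (0.0513) and without any 1 of 4 libraries, the second of each group (adjusted p 0.0569 to 0.143). GATA3 was not called (0.21 ± 0.42, adjusted p = 0.71). The 2 differences share the BRG1 libraries. ERG was highest beside BRG1, and SMARCA4 was lower in BRG1-K785R ERG than in BRG1-K785R Empty. The part of these levels in the differences was not tested.

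**Figure D4:**
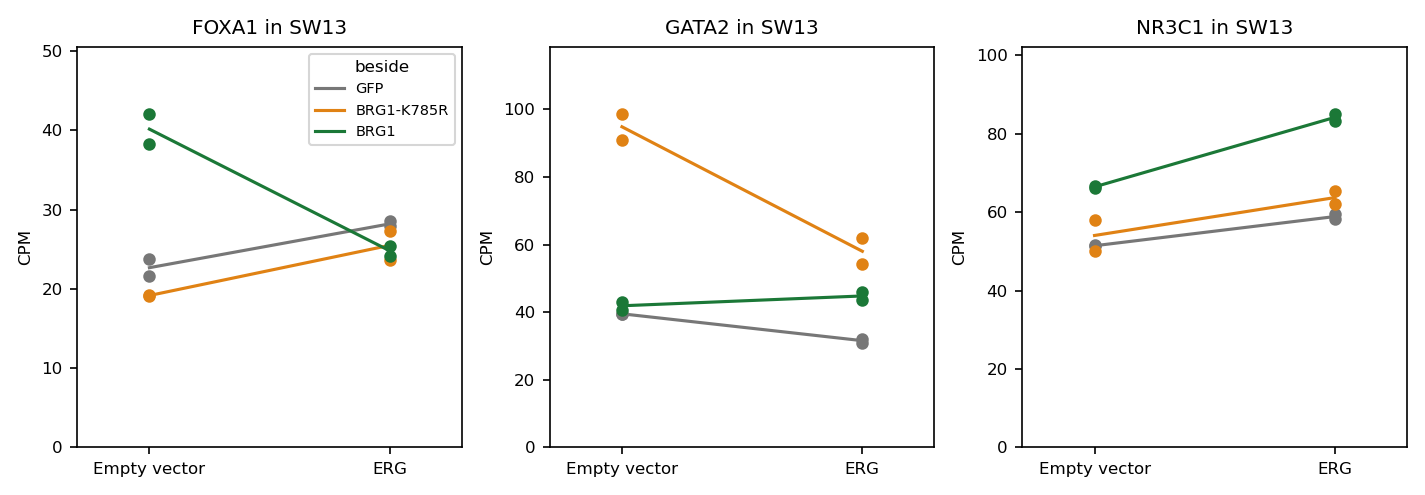
CPM of FOXA1, GATA2 and NR3C1 in the 12 SW13 libraries, with points for libraries and lines joining the group means from the empty vector to ERG; colours give the construct beside it. FOXA1 falls with ERG beside BRG1, to a mean of 24.8 CPM, and lies above its Empty libraries beside GFP and BRG1-K785R, while GATA2 falls from 94.88 to 58.04 CPM beside BRG1-K785R.

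Coactivator and corepressor genes differed between the same SW13 groups. Of 9 coactivator and corepressor genes 7 were higher and 1 lower with BRG1-K785R against GFP, at a median of 0.63 (0.05 over all genes), and 2 were higher and 6 lower when ERG was added beside it, at a median of -0.60. Over all genes 58.7% and 56.2% were called in these 2 comparisons, which share the BRG1-K785R Empty libraries on opposite sides. CREBBP, a histone acetyltransferase that p160 proteins recruit, rose from 123 to 331 CPM (log2 1.51 ± 0.07, adjusted p = 2.97e-17) and fell to 166 CPM with ERG (log2 -1.18 ± 0.07, adjusted p = 1.54e-14). The SMARCA4 level and the composition of the BRG1-K785R Empty libraries, given above, moved with this list, and their part was not tested. With BRG1 against GFP 4 were higher and 1 lower, at a median of 0.13 (0.03 over all genes, of which 62.4% were called). CREBBP was again among those higher, at 223 CPM with BRG1 (log2 0.73 ± 0.07, adjusted p = 3.65e-10), and it fell to 166 CPM with ERG beside BRG1 (log2 -0.38 ± 0.07, adjusted p = 6.94e-05). These changes share the BRG1 Empty libraries.

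Of the luminal factors 8 were tested in SW13. BRG1 against GFP gave 5 higher and none lower at a median of 0.83 (0.03 over all genes), and ERG beside BRG1 gave 1 higher and 6 lower at a median of -0.74. Called genes made up 62.4% and 45.4% of all genes. Both comparisons use the BRG1 Empty libraries, on opposite sides, so the rise and the fall are not independent. KLF5, an epithelial Krüppel-like factor, fell from 47.5 to 24.3 CPM with ERG beside BRG1 (log2 -0.92 ± 0.09, adjusted p = 2.34e-10). Of 15 tested glucocorticoid response genes 6 were higher and 3 lower for ERG beside BRG1, where NR3C1 was highest, and their median was 0. SGK1, a kinase induced by glucocorticoids, rose from 1.93 to 34.7 CPM there (log2 4.21 ± 0.16, adjusted p = 4.28e-20). With BRG1 against GFP 5 of the 15 were higher, 1 lower and 9 not called, at a median of 0.12 (0.03 over all genes). That is a smaller share than the 62.4% called over all genes. TNFAIP3, an inhibitor of NF-κB signalling, had the largest change of the list there, from 2.25 to 24.3 CPM (log2 3.29 ± 0.15, adjusted p = 1.6e-18), among genes with at least 5 CPM in a compared group.

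Ordered by mean, FOXA1 ran from VCaP shCt (877.3 CPM) through the other VCaP and the LNCaP groups to SW13 BRG1-K785R Empty (19.16 CPM), and only SW13 BRG1-K785R ERG and BRG1 ERG overlapped among neighbours. GATA2 ran from VCaP shARID1A (1369 CPM) to SW13 GFP ERG (31.59 CPM), with an overlap of neighbours for LNCaP ERG and ETV1. NR3C1 ran from SW13 BRG1 ERG (84.21 CPM) to LNCaP Empty (1.982 CPM), and the 3 LNCaP groups overlapped, as did SW13 BRG1-K785R Empty and GFP Empty. NCOA2 ran from VCaP shERG (282.5 CPM) to LNCaP ETV1 (49.63 CPM), and 5 pairs of neighbours below VCaP overlapped. GATA3 ran from SW13 BRG1-K785R Empty (2.565 CPM) down to LNCaP Empty, and 7 of its 11 pairs of neighbours overlapped.

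The genes whose pattern was most like each of the 5 were found over the 12 group means of log2 CPM after removing each line's mean, among 8942 or 8943 genes with at least 5 CPM on average in every line. These correlations describe 12 points that share libraries and scaling, and carry no test. GATA3 was most like AREL1 (r = 0.963), GATA2 like SLC35A2 (r = 0.957), NR3C1 like GAB1 (r = 0.955), FOXA1 like DNHD1 (r = 0.904) and NCOA2 like PHF3 (r = 0.853). GATA3 itself was under that minimum in every line, and NR3C1 was under it in LNCaP. With 3 to 22 reads in VCaP libraries and 0 to 8 in LNCaP libraries, the GATA3 pattern in these lines lies near the floor. GAB1, an adaptor of receptor kinases, was at 5.58 CPM in VCaP shCt, 18.3 CPM in shERG and 19.4 CPM in shARID1A, and at 10.2 CPM in SW13 BRG1 ERG. Among the 5 genes themselves no pair had a correlation above 0.32 (GATA2 with GATA3), and the lowest was -0.40 (GATA2 with NCOA2).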

How the data were processed

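RNA-seq of 24 libraries was analysed from the gene tables. The deposited tables have no header, and their units were read from the values. As deposited, the read counts are integers whose sums differ between libraries, and every test used these counts. The deposited RPKM follow from count, gene length and library total, and served for levels per length. STAR 2.3.1 and hg19 are named per the submitters' processing notes. How reads were assigned to genes (program, gene models, strand) is not given in the sources used here.

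One fit per line held all groups of that line (edgeR 4.0.16, R 4.3.3, limma 3.58.1, TMM, filterByExpr with a minimum of 10 reads, two-sided quasi-likelihood test, Benjamini-Hochberg, threshold 0.05), and the 3 control groups were compared in a fit of all 24 libraries. Residual degrees of freedom were 3 (VCaP), 3 (LNCaP), 6 (SW13) and 12. Summaries used Python 3.11.15, pandas 2.3.3, numpy 2.4.6, scipy 1.17.1 and matplotlib 3.10.9. Replicates varied beyond counting error (chi-square per degree of freedom 2.27 to 13.1). Counting intervals are exact (95%) and cover counting error only. The fit was tested on simulated data.

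Of the symbols in the tables, 23608 matched RefSeq, whose GRCh38.p14 coordinates are given for promoters only. The 5 genes are given in every comparison. From each list and comparison up to 2 called genes with the largest absolute log2 change and at least 5 CPM in a compared group could be named, and a gene so named in 1 comparison is followed in its neighbours. Exceptions are marked in the text. The 5 genes and the lists were chosen with earlier results of these data known, and 4 list genes are not reported here. Alternatives were RLE factors, library totals, no filter, DESeq2 1.42.0, only the compared groups, a replicate block, leaving out each library and, added after seeing the data, a fit without the BRG1-K785R Empty libraries.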

Additional observations from a re-analysis of the deposited data

Results flagged for a closer look

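In SW13 the effect of ERG was compared between backgrounds by a test of the difference itself (edgeR's quasi-likelihood test of the interaction, n = 2 libraries in each of the groups). Between BRG1 and GFP 2 of the 5 genes were called, where 37.8% of all genes were. The log2 difference was -0.91 for FOXA1 (adjusted p = 2.42e-06), which fell with ERG in both libraries beside BRG1 and lay above the Empty libraries in both beside GFP, and 0.52 for GATA2 (adjusted p = 0.00064). Between BRG1 and BRG1-K785R 4 of the 5 were called, where 46.2% of all genes were. The difference was -0.87 for FOXA1 (adjusted p = 3.42e-06), 1.04 for GATA2 (adjusted p = 6.56e-09), 0.34 for NR3C1 (adjusted p = 0.0106) and 0.28 for NCOA2 (adjusted p = 0.0286). When libraries were scaled by their totals, the last 2 were no longer called (0.10 at an adjusted p of 0.447, and 0.05 at 0.734). The ERG level was highest beside BRG1, and SMARCA4 was lower in BRG1-K785R ERG than in BRG1-K785R Empty. The part of these levels was not tested.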

How the results depend on the processing

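Of 82 tested changes of the 5 genes, 59 were called. Over all genes the share called in the 17 comparisons ran from 14.4% (LNCaP ERG against ETV1) to 80.7% (SW13 against VCaP controls), so this count is not particular to the 5 genes. Of the 59 calls, 44 were called under every alternative run, and 15 were lost under at least 1, named beside each in the text, with 1 changing sign. GATA3 gave 2 of the 59 calls in VCaP, where only the shERG libraries passed the filter. Leaving out 1 library gave 2632 to 3873 called genes for LNCaP ERG against Empty (5045 with all), 1987 to 3261 for LNCaP ETV1 against Empty (4439), 1003 to 1638 for LNCaP ERG against ETV1 (2441) and 1743 to 3642 for SW13 ERG beside GFP (4433). The count fell by over 1.5 times without either LNCaP Empty library (ERG or ETV1 against Empty), without the second ETV1 library (ETV1 against Empty), without either ETV1 library or the first ERG library (ERG against ETV1), and without the second GFP Empty library or either GFP ERG library. Every other alternative left the 17 counts of called genes within 1.5 times.

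Signs of some changes that were not called turned when 1 library was left out. For GATA3 with shARID1A in VCaP the log2 change ranged from -0.56 (without the first shCt library) to 1.09, and it was -0.03 without the first shARID1A library. In LNCaP, NCOA2 with ERG ranged from -0.05 to 0.09 and NR3C1 with ETV1 from -0.05 to 0.51, both lowest without the second Empty library. Between ERG and ETV1, NR3C1 ranged from -0.11 (without the second ERG library) to 0.35 and GATA2 from -0.06 (without the first ETV1 library) to 0.08. NR3C1 ranged from -0.02 to 0.18 for BRG1 against BRG1-K785R and from -0.05 to 0.15 for ERG beside BRG1-K785R, both lowest without the first BRG1-K785R Empty library. With library totals, GATA2 was 0.08 for BRG1 against GFP, NCOA2 0.03 for BRG1 against BRG1-K785R and GATA3 -0.02 for the difference of ERG effects between BRG1 and BRG1-K785R. Between the ERG effects beside BRG1 and GFP, GATA3 and NCOA2 were called with library totals (adjusted p = 0.0495 and 0.0336) and NR3C1 in a fit of the compared groups alone (0.0378). The cause was not tested.

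The replicate number as a block (replicate block) changed no call of the 5 genes. Replicate deviations correlated at -0.251 to 0.014 in LNCaP, -0.0593 to 0.0427 in VCaP and -0.258 to 0.383 in SW13, so the numbers were not read as pairs. For GATA3, at 0 to 69 reads a library, depth limits every value.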
